A study of Mus musculus with 2 samples.

Results

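A set of 8 genes of lymphocyte homing and retention in the gut were followed in sorted intestinal lymphocytes: Itga4, Itgae, Itgb7, Itgal, Cd69, Cd44, Selplg and Cd160. They were chosen by name for their roles, with earlier results of these data known, and are 8 of the 23679 genes in the deposited tables. The cells were sorted as group 3 innate lymphoid cells (ILC3s), which resemble T helper cells but carry no antigen receptor, from the small intestine of male C57BL/6 mice aged 18 months. Both samples belong to 1 group, aged gut ILC3s, with replicates 1 and 2. Neither a genotype nor a treatment is given for them, and nothing says whether the replicates came from separate animals. Unless the text says that the block was left out, p-values weigh a difference only against how far group differences varied between these 2 samples. That variation may be technical. Single-cell RNA was captured on the BD Rhapsody system, in which each sample carries an oligonucleotide tag, and the cells of tag 6 (replicate 1) and tag 12 (replicate 2) were used. The surface markers of the sort are not given in the sources used here.

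Cells were grouped by transcripts that are not among the 8 genes. The T group held every cell with at least 1 UMI (unique molecular identifier, 1 counted transcript) of Cd3d, Cd3e or Cd3g, which encode the CD3 chains of the T cell receptor complex. It had 1149 cells in replicate 1 and 1117 in replicate 2. Cells without a CD3 UMI were divided into an Ncr1 group with at least 1 UMI of that natural cytotoxicity receptor gene (608 and 438 cells) and a Ccr6/Cd4 group with Ccr6 or Cd4 but no Ncr1 (128 and 79 cells). Ccr6 and Cd4 mark lymphoid tissue inducer cells among ILC3s. The rest (1452 and 2206 cells) had none of these UMIs, which at this depth does not show that a cell lacked the transcripts.

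Integrins are surface receptors made of 1 alpha and 1 beta chain that bind ligands on other cells or in the matrix. The alpha 4 chain (Itga4) paired with beta 7 (Itgb7) binds MAdCAM-1 on gut venules and brings lymphocytes into the lamina propria, and with beta 1 it binds VCAM-1 and fibronectin. The alpha E chain (Itgae, CD103) pairs with beta 7 and binds E-cadherin on epithelial cells. The alpha L chain (Itgal) pairs with beta 2 to form LFA-1, which binds ICAMs. PSGL-1 (Selplg) is the main P-selectin ligand and CD44 binds hyaluronan. CD69 holds lymphocytes in tissue by removing the egress receptor S1PR1 from the surface, and CD160 is a receptor for HVEM on intraepithelial T cells, NK cells and ILCs.

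The 4 group sums held 153949 to 3671205 UMIs, and median UMIs per cell lay between 1579 and 2045. Il7r, a defining ILC marker that T cells also carry, had a UMI in 84.8% to 94.3% of cells in every group. Kit, an ILC3 marker, had one in 32.3% to 51.5% of cells of the 3 groups without CD3, and in 13.5% and 11.4% of the T group. Trac, the constant gene of the T cell receptor alpha chain, had a UMI in 62.6% and 57.3% of T group cells, and in 4.79% to 16.5% of cells of the other groups. The beta chain constant genes were not confined in this way. Trbc1 went the other way, with a UMI in 38.4% and 31.1% of T group cells against 58.2% and 52.5% of Ncr1 cells. Trbc2 had one in 79.0% and 74.4% of T group cells and in 54.6% and 49.3% of Ncr1 cells. A T cell without a CD3 UMI cannot be told apart from an ILC in these groups. Stromal markers were far more abundant in replicate 1. Their summed level there was 4519, 4054, 631 and 5703 CPM (a gene's UMIs divided by the group sum and brought to a common total) in the T, Ncr1, Ccr6/Cd4 and rest groups, against 141, 41.3, 26.0 and 136 in replicate 2. B or plasma cell markers came to 3408, 5190, 1917 and 6042 CPM in replicate 1 and to 290, 4483, 39.0 and 3365 CPM in replicate 2. The part of such cells or of their free RNA in the values below was not tested.

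Itga4 was the 1 gene of the 8 that was called in all 3 comparisons. It was highest in the Ccr6/Cd4 group and lowest in the T group. In the Ccr6/Cd4 group it stood at 391 CPM in replicate 1 and 247 CPM in replicate 2 (319 ± 102, mean ± SD, n = 2). The rest had 201 and 125 CPM, the Ncr1 group 189 and 133, and the T group 87.7 and 37.8. The Ccr6/Cd4 samples lay above all others and the T samples below all others, while the rest and the Ncr1 group overlapped. The main test set groups against each other within both samples (edgeR on summed UMIs, with Benjamini-Hochberg adjustment over 9637 genes). Itga4 was 1.88-fold lower in the Ncr1 than in the Ccr6/Cd4 group, with a log2 ratio of -0.91 ± 0.19 (SE, adjusted p = 0.0033). Log2 ratios in the single replicates were -1.0 and -0.75. Without cells holding 3 or more UMIs of markers of other cell types, the ratio was -0.90 and did not pass (adjusted p = 0.22). Those markers include Cst3 and Fcer1g, which had a UMI in 95.2% and 86.5% of Ncr1 cells. The setting thus removed 85.2% and 56.4% of Ncr1 cells. With Fcer1g and Cst3 not counted, a setting chosen after the data were seen, 16.9% and 2.74% were removed and this call stayed. The T group was 2.52-fold below the Ncr1 group (log2 ratio -1.33 ± 0.15, adjusted p = 9.9e-07; -1.08 and -1.73 in replicates 1 and 2). Against the Ccr6/Cd4 group it was 4.73-fold lower (-2.24 ± 0.20, adjusted p = 2.6e-08; -2.08 and -2.48).

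Background shares of called genes help to read such calls. Of all 9637 genes tested, 4.62% were called between the Ncr1 and Ccr6/Cd4 groups (2.35% higher and 2.27% lower in the Ncr1 group), 11.6% between the T and Ncr1 groups (6.06% and 5.55% in the T group), and 10.0% between the T and Ccr6/Cd4 groups (5.46% and 4.58% in the T group). The median log2 ratio over all genes was 0.09, 0.02 and 0.10. All 8 homing genes passed the filter on low counts, Itgae with most of its counts in the T group. Between the Ncr1 and Ccr6/Cd4 groups 4 of the 8 were called, 3 higher and 1 lower in the Ncr1 group, with a median of 0.47. Between the T and Ncr1 groups 2 (Itgae 1 of them) were higher and 2 lower in the T group, with a median of 0.07. Against the Ccr6/Cd4 group 5 (again with Itgae) were higher and 1 lower in the T group, with a median of 0.70. These 3 comparisons share groups, so their counts are not independent of each other. The 8 genes were chosen with earlier results of these data known, so the counts beside the background shares are a description only. Without the sample as a block in the fit, only Itgal between the T and Ccr6/Cd4 groups stayed past 0.05 among the 8 genes (adjusted p = 0.042). All other calls named here for these genes rest on comparing groups within each sample. A UMI of some T cell receptor constant gene was found in 560 of 608 and 371 of 438 Ncr1 cells. Without such cells in the groups that lack CD3, 5 of the 14 calls ended, among them those of Itga4, Itgal and Cd160 between the T and Ncr1 groups (log2 ratios -0.86, 0.90 and -0.75), and the Itgae ratios could not be fitted. With cells left out by Trac alone, a setting chosen after the data were seen, all 14 calls stayed.

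**Figure D1:**
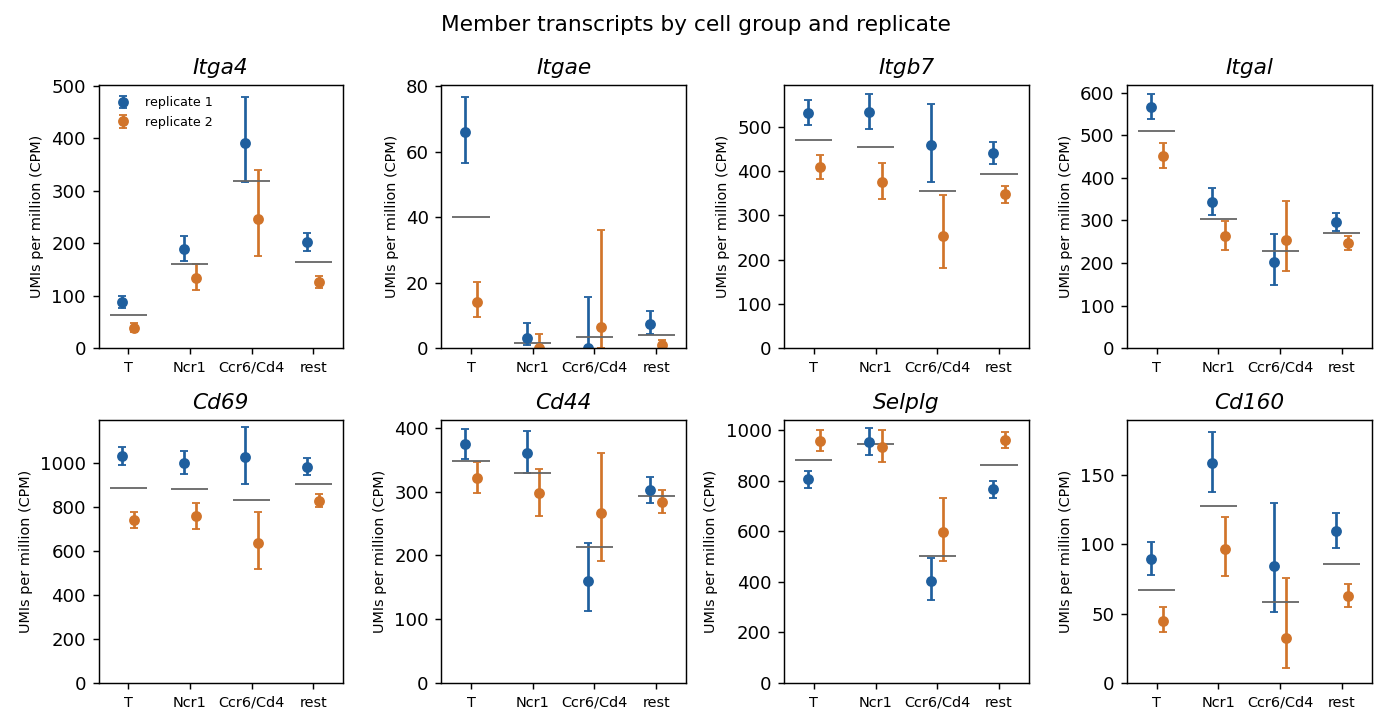
Levels in CPM of the 8 genes in the T, Ncr1, Ccr6/Cd4 and rest groups, with 1 point per replicate, exact Poisson 95% intervals that cover counting error only, and a grey line at the mean of both. Itga4 is highest in the Ccr6/Cd4 group (391 and 247 CPM), Itgae is highest in the T group (65.9 and 14.2 CPM), and Cd69 lies between 637 and 1030 CPM in all groups.

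On GRCm38 with GENCODE M21, Itga4 covers chr2:79255426-79333123 on the plus strand. Cerkl overlaps it on the opposite strand (16 UMIs in all kept cells), and reads of both cannot be told apart if strand was not used, since the strand setting of the counting is not given in the sources used here. The 250 bases upstream of its start, from RefSeq on GRCm38.p6 at chr2:79255176-79255425, are shown because Itga4 differed in all 3 comparisons. Capitals mark matches on either strand to a RUNX core motif (TGTGGT), an ETS core motif (CCGGAA) and a GC box (GGGCGG).
Itga4: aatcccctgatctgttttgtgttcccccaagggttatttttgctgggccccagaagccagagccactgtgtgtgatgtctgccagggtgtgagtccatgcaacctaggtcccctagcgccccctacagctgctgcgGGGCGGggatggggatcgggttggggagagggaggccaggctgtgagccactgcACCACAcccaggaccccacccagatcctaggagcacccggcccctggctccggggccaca
It held 1 RUNX match, read on the minus strand, and 1 GC box. Over 32851 promoter windows of the same length, 14.0% held the RUNX letters, 12.0% the ETS letters and 32.7% the GC box letters. Such matches describe the letters and are not shown to be bound. Of the 8 genes, 4 matched a RefSeq promoter window.

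Within the Ccr6/Cd4 group, Itga4 was high in both of its parts. Cells with Ccr6 and no Cd4 (64 and 28 cells) had 421 and 264 CPM, and cells with Cd4 and no Ccr6 (49 and 44 cells) had 327 and 194 CPM. The few cells with both UMIs (15 and 7) had 443 and 435 CPM. Each part lay above the Ncr1 group of its own replicate. Within the T group, cells with Trdc and no Trac, the transcript pattern of gamma delta T cells, had 57.4 and 33.7 CPM, and cells with Trac and no Trdc had 80.2 and 28.6. A split by Cd4 and Cd8a was chosen after the data were seen. T group cells with Cd4 and no Cd8a had 213 and 73.0 CPM of Itga4, those with neither 66.2 and 33.9, and those with Cd8a 109 and 66.7. Itga4 in Cd4 cells of the T group was thus above that of cells with neither transcript in both replicates, without a test.

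Itgae was found mainly in the T group, which held 173 of its 197 UMIs in replicate 1 and 30 of 34 in replicate 2 (65.9 and 14.2 CPM). The Ncr1 group held 4 and 0 UMIs (2.99 CPM, and a limit of 3.45 CPM for a count of 0), and the Ccr6/Cd4 group 0 and 1 (a limit of 12.6 CPM, and 6.50 CPM). The rest had 20 and 3 UMIs (7.30 and 0.817 CPM), and 10 of those 20 came from 1 cell. Both T samples lay above every other sample. Pooled over the replicates, the T group had 203 UMIs against 4 in the Ncr1 group, a ratio of 23.7 with a counting interval of 9.10 to 87.7, and against 1 in the Ccr6/Cd4 group, a ratio of 16.8 with an interval of 2.98 to 666. Fitted log2 ratios were 4.64 ± 0.52 (SE) against the Ncr1 group and 4.20 ± 0.91 against the Ccr6/Cd4 group. Itgae passed the filter on low counts with most of its UMIs in the T group and the other groups near the floor. Its calls are therefore counted but support nothing. The ratios with their counting intervals are given as a description. Those intervals pool the UMIs of both replicates and cover counting error only, not the spread between cells or replicates (65.9 and 14.2 CPM in the T group). Between the Ncr1 and Ccr6/Cd4 groups, with 5 UMIs in all, no difference was detectable at this depth.

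A minority of T group cells had a UMI of Itgae. At least 1 UMI was found in 95 of 1149 cells in replicate 1 (8.27%, exact Clopper-Pearson 95% interval 6.74 to 10.0) and in 23 of 1117 cells in replicate 2 (2.06%, 1.31 to 3.07). The highest cell had 7 UMIs. T group cells with a Cd8a UMI (126 and 46 cells) held 12.5% and 4.25% of its UMIs. The same cells held 112 of its 173 and 12 of its 30 Itgae UMIs, at 341 and 133 CPM. Cells with Cd4 and no Cd8a had 76.8 and 36.5 CPM and cells with neither 19.4 and 6.89. Where Cd8b1, the second CD8 chain, was also found (63 and 7 cells), Itgae stood at 463 and 524 CPM. The order Cd8a, Cd4, neither held in both replicates. Among cells with Trac and no Trdc, those with a UMI of Ccl5 or Gzma, genes of cytotoxic effector cells, had 224 and 117 CPM of Itgae (169 and 66 cells). Those without had 24.4 and 0.976 (512 and 530 cells). Cells with Trdc and no Trac had 46.6 and 19.3 CPM. These splits by Cd8a, Cd4, Ccl5 and Gzma were chosen after the data were seen and carry no test.

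**Figure D2:**
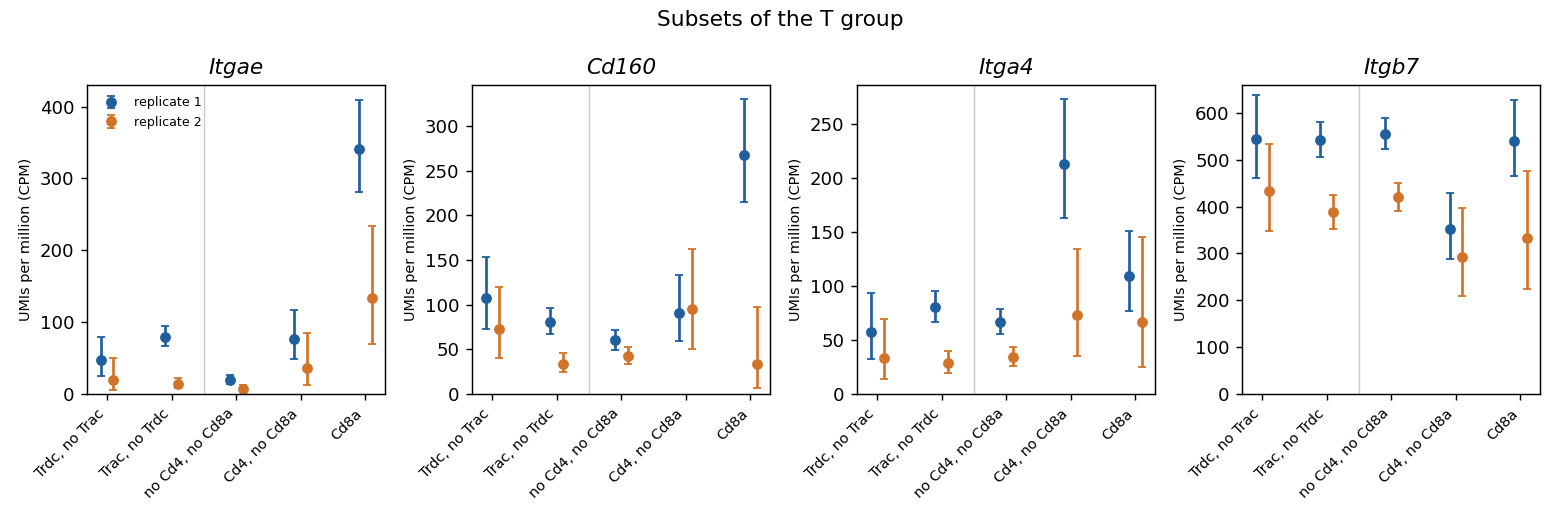
CPM of Itgae, Cd160, Itga4 and Itgb7 in subsets of the T group, with 1 point per replicate and exact Poisson 95% intervals for counting error. The grey line parts the split by receptor chain from the split by Cd4 and Cd8a. Itgae is highest in cells with Cd8a (341 and 133 CPM), and Cd160 is high there in replicate 1 (268 CPM) but not in replicate 2 (33.4 CPM).

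Itgae also had the widest difference between the replicates among the 8 genes. Over all kept cells it was 5.69-fold higher in replicate 1, on 197 against 34 UMIs, and Cd8a T cells numbered 126 against 46. Within them Itgae stood at 341 and 133 CPM, and within those that also held Cd8b1 at 463 and 524 CPM, the latter on 8 UMIs. The part of cell makeup in the difference between the replicates was not tested. Summed markers of ILC1 or NK cells, which include Ccl5 and Gzma, came to 1442 and 884 CPM in the T group against 219 to 534 CPM in the other groups. Of the 10 markers in that list, Ccl5 (630 and 249 CPM), Nkg7 (319 and 225), Gzmb (235 and 214) and Gzma (206 and 159) were highest in the T group. Prf1, Klrd1 and Klre1 were lower in the T than in the Ncr1 group in both replicates. Eomes and Klra8 were at 0 in the Ncr1 and Ccr6/Cd4 groups and at no more than 1.52 CPM in the T group. The part of such cells in the Itgae values was not tested. Itgae lies at chr11:73090583-73147446 on the plus strand. Haspin overlaps it on the opposite strand with 32 UMIs in all kept cells, and its reads cannot be told apart from those of Itgae if strand was not used.

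Itgb7, the beta chain shared by both gut integrins, was abundant in every group. It stood at 532 and 408 CPM in the T group, 534 and 376 in the Ncr1 group, 440 and 348 in the rest, and 458 and 253 in the Ccr6/Cd4 group. All neighbouring groups in this order overlapped. The 1 call was a higher level in the T than in the Ccr6/Cd4 group, 1.41-fold (log2 ratio 0.50 ± 0.15, adjusted p = 0.036; 0.28 and 0.88 in the replicates), and it ended with DESeq2 (0.45, adjusted p = 0.080) and without TMM scaling (0.38, adjusted p = 0.083). Between the T and Ncr1 groups the log2 ratio was 0.09, with a 95% interval of -0.13 to 0.32. Itgb7 lies at chr15:102215995-102231944 on the minus strand.

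Itga4 and Itgb7 had different orders across the groups, in single cells at equal depth as well. Each cell was thinned to 800 UMIs, and 87 and 131 shallower cells of replicates 1 and 2 were left out. Itga4 then had a UMI in 22.2% and 15.4% of Ccr6/Cd4 cells, 11.7% and 7.87% of Ncr1 cells, 14.1% and 7.56% of the rest and 5.56% and 2.83% of T group cells. Unthinned shares were 39.1% and 26.6%, 27.3% and 18.5%, 363 of 1452 and 320 of 2206 cells, and 12.6% and 5.64% in the same order. Itgb7 had one in 27.0% and 15.4%, 35.2% and 25.9%, 27.1% and 23.6%, and 33.8% and 26.8%. Both UMIs in the same cell, as alpha 4 beta 7 would need, were seen in 6.35% and 1.28% of Ccr6/Cd4, 5.51% and 1.62% of Ncr1, 2.95% and 1.57% of rest and 2.38% and 0.457% of T group cells. The intervals of the Ccr6/Cd4 and Ncr1 groups overlapped widely (2.78 to 12.1% and 3.82 to 7.65% in replicate 1). Itgae with Itgb7 was seen in 8 of 1134 and 5 of 1095 T group cells. It was seen in 0 of 599 and 0 of 432 Ncr1 cells, which allows shares of up to 0.501% and 0.694% of cells with both UMIs.

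A background for such shares came from cells that should lack most of these genes. In replicate 1, 82 cells with at least 20 UMIs of stromal markers had a median of 4939 UMIs. Thinned to 800 UMIs, 2.44% of them held Itga4, 1.22% Itgae, 6.10% Itgb7, 8.54% Itgal, 14.6% Cd69, 11.0% Selplg and 1.22% Cd160. Thinning takes more UMIs from these deeper cells than from the groups, so their thinned shares may understate the background. Unthinned, 36.6% of them held Itgb7, 32.9% Itgal and 45.1% Selplg. The 4 groups in replicate 1 had 48.7% to 63.0%, 29.7% to 67.1% and 47.7% to 81.4%. The stromal-rich cells were chosen after the data were seen and may include pairs of a stromal cell and a lymphocyte. They were not taken out of the 4 groups, so they are not an independent background. The interval of their thinned Itga4 share (0.297 to 8.53%) overlaps that of the T group in replicate 1 (4.30 to 7.05%). Both intervals cover counting over cells of 1 replicate only. The part of background in the Itga4 level of T group cells was not tested. The thinned Itgae share of T group cells in replicate 1, 3.26% (2.31 to 4.47%), also lies within the stromal interval of 0.0309 to 6.61%, although Itgae among T cells was concentrated in those with Cd8a.

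**Figure D3:**
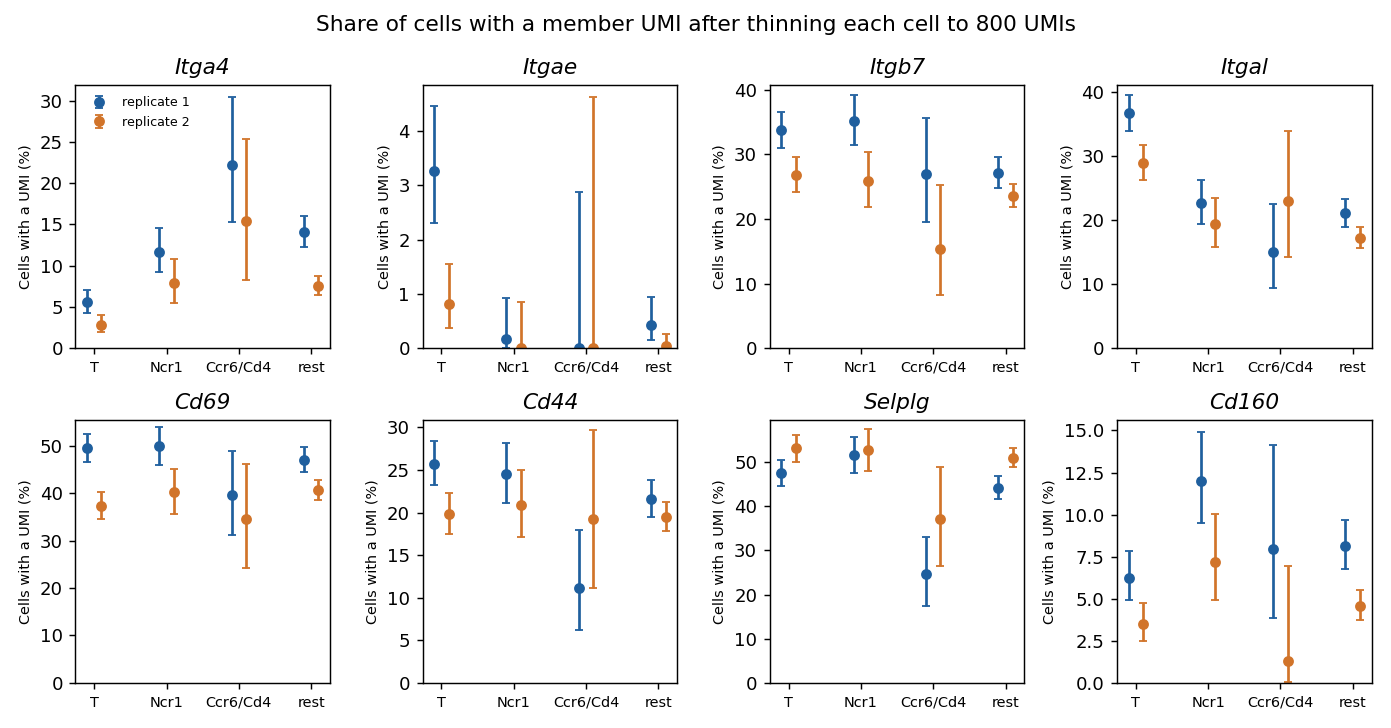
Share of cells with at least 1 UMI of each gene after every cell was thinned to 800 UMIs, by group and replicate, with exact Clopper-Pearson 95% intervals. The Itga4 share falls from 22.2% and 15.4% in the Ccr6/Cd4 group to 5.56% and 2.83% in the T group, and Selplg is lowest in the Ccr6/Cd4 group at 24.6% and 37.2%.

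Itgal was highest in the T group. It stood at 566 and 452 CPM there, 342 and 263 in the Ncr1 group, 296 and 247 in the rest and 202 and 253 in the Ccr6/Cd4 group. Only the T samples lay apart from all others. The T group was 1.72-fold above the Ncr1 group (log2 ratio 0.79 ± 0.12, adjusted p = 3.0e-05; 0.74 and 0.84) and 2.50-fold above the Ccr6/Cd4 group (1.32 ± 0.16, adjusted p = 3.5e-06; 1.54 and 1.02). Between the Ncr1 and Ccr6/Cd4 groups it did not pass (0.53 ± 0.17, adjusted p = 0.089). With the second group taken from Ccr6 UMIs only, that ratio was 1.02 (adjusted p = 0.0018), and cells with Ccr6 and no Cd4 had 165 and 132 CPM of Itgal against 257 and 327 in cells with Cd4 and no Ccr6. Itgal was even across the T group, with 563 and 424 CPM in cells with Trdc and no Trac, and 590 and 480 in cells with Trac and no Trdc. It lies at chr7:127296260-127335138 on the plus strand.

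The partner chain of Itgal, Itgb2, was lower in the Ccr6/Cd4 group, at 139 and 26.0 CPM, against 304 and 138 in the T group and 293 and 107 in the Ncr1 group. It was 2.42-fold higher in the Ncr1 than in the Ccr6/Cd4 group (log2 ratio 1.28 ± 0.25, adjusted p = 0.0018) and 2.81-fold higher in the T group (1.49 ± 0.24, adjusted p = 0.00010). At 800 UMIs per cell, Itgal and Itgb2 were both found in 7.14% and 2.83% of T group, 5.18% and 0.694% of Ncr1 and 3.81% and 1.28% of rest cells. They were both found in 0 of 126 and 0 of 78 Ccr6/Cd4 cells, which allows shares of up to 2.38% and 3.85%. Itgb2 was 2.52-fold higher in replicate 1 over all kept cells, so these shares also follow the replicate.

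Selplg was low in the Ccr6/Cd4 group. It stood at 404 and 598 CPM there, against 954 and 936 in the Ncr1 group, 806 and 960 in the T group and 766 and 963 in the rest. No Ccr6/Cd4 sample reached any sample of another group. The Ncr1 group was 2.06-fold higher (log2 ratio 1.04 ± 0.14, adjusted p = 1.8e-05; 1.28 and 0.78) and the T group 1.96-fold higher (0.97 ± 0.13, adjusted p = 1.5e-05; 1.06 and 0.88). The T and Ncr1 groups did not differ beyond their spread (-0.07, 95% interval -0.28 to 0.14). At 800 UMIs per cell, Selplg had a UMI in 24.6% and 37.2% of Ccr6/Cd4 cells and in 44.1% to 53.1% of cells of the other groups. Cells with Ccr6 and no Cd4 had 347 and 585 CPM and those with Cd4 and no Ccr6 had 479 and 654. In the rest, cells with no UMI of Trac, Trbc1, Trbc2 or Trdc (483 and 679 cells) had 509 and 835 CPM, and cells with such a UMI (969 and 1527) had 882 and 1014. Selplg was the 1 gene of the 8 with a lower level in replicate 1, 0.847 times that of replicate 2. It lies at chr5:113818536-113832644 on the minus strand.

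Cd44 was likewise lowest in the Ccr6/Cd4 group, with 160 and 266 CPM there against 361 and 297 in the Ncr1 group, 375 and 322 in the T group and 302 and 284 in the rest. The Ccr6/Cd4 samples again lay below all others, but the gap in replicate 2 was narrow. The Ncr1 group was 1.72-fold higher (log2 ratio 0.78 ± 0.19, adjusted p = 0.015), with 1.21 in replicate 1 and 0.29 in replicate 2, and this call ended with DESeq2 (0.72, adjusted p = 0.060), without cells that hold T cell receptor constant UMIs (0.83, adjusted p = 0.34) and without cells of other types (0.80, adjusted p = 0.27). The T group was 1.86-fold above the Ccr6/Cd4 group (0.90 ± 0.19, adjusted p = 0.0018; 1.29 and 0.46), a call that ended in the same setting (0.86, adjusted p = 0.068). With Fcer1g and Cst3 not counted, a setting chosen after the data were seen, both calls stayed. Between the T and Ncr1 groups the log2 ratio was 0.12 (95% interval -0.13 to 0.36). Cd44 is also a gene of stromal cells, whose markers were higher in replicate 1. The part of such cells or of their free RNA in the Cd44 values was not tested. At 800 UMIs per cell, 9.76% of the 82 stromal-rich cells held Cd44, against 11.1% to 25.7% of the 4 groups in replicate 1. Unthinned, 42.7% of these deeper cells held it, against 23.4% to 48.9% of the 4 groups.

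Cd44 lies at chr2:102811141-102901665 on the minus strand. Its 250 upstream bases, at chr2:102901666-102901915 on the minus strand (RefSeq, GRCm38.p6), are shown beside those of Itga4, since both genes were called between the Ncr1 and Ccr6/Cd4 groups in opposite directions.
Cd44: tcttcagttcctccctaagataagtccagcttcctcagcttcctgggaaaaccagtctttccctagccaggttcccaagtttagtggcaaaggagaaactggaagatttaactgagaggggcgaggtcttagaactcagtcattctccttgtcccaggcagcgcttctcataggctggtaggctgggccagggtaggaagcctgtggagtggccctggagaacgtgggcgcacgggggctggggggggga
None of the 3 motifs matched in this window, which says only that these letters are not in it.

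**Figure D4:**
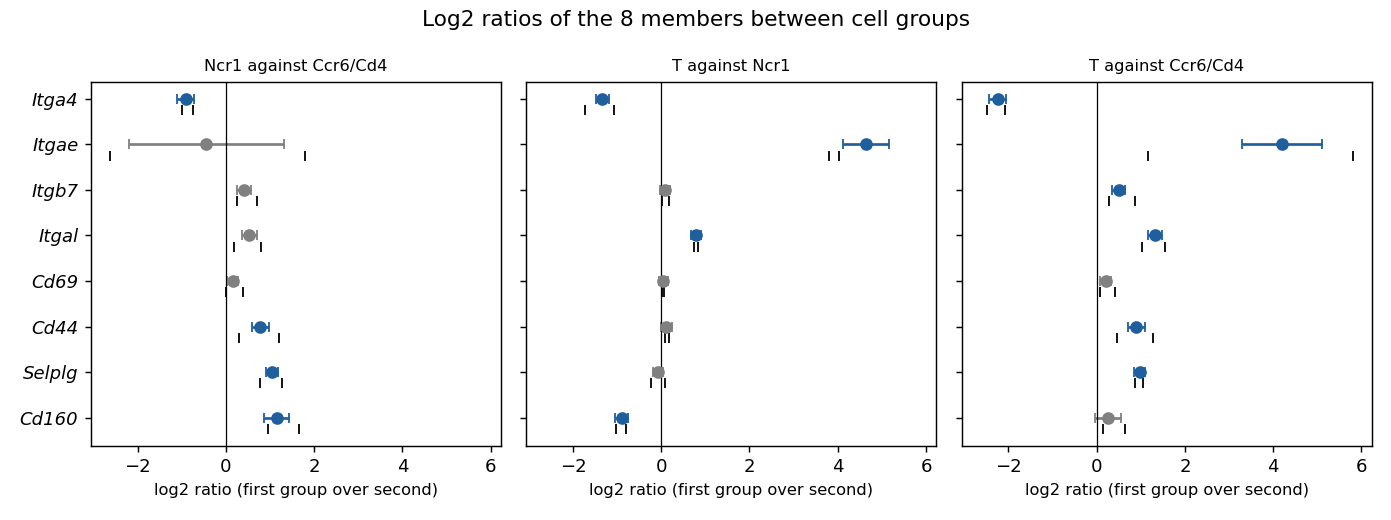
Log2 ratios of the 8 genes in the 3 comparisons from edgeR (points, bars are ± SE, blue where adjusted p was under 0.05) with the ratio in each replicate as black ticks. Itga4 is to the left of 0 in all 3 panels, Itgae is far to the right in both comparisons with the T group (4.64 and 4.20), and Cd69 is near 0 throughout.

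No difference in Cd69 between the groups passed the test. It stood at 1030 and 740 CPM in the T group, 1000 and 757 in the Ncr1 group, 1026 and 637 in the Ccr6/Cd4 group and 982 and 826 in the rest. All groups overlapped, and each had the higher level in replicate 1. Log2 ratios were 0.15 between the Ncr1 and Ccr6/Cd4 groups (95% interval -0.09 to 0.40), 0.05 between the T and Ncr1 groups (-0.17 to 0.26) and 0.20 between the T and Ccr6/Cd4 groups (-0.04 to 0.44). The last of these passed without cells holding 3 or more UMIs of markers of other cell types (0.71, adjusted p = 0.0071). That setting removed 76.6% and 46.8% of Ccr6/Cd4 cells. With Fcer1g and Cst3 not counted, it did not pass. At 800 UMIs per cell, 34.6% to 49.9% of cells in every group held a UMI, against 14.6% of stromal-rich cells (7.80 to 24.2%). Thinning takes more UMIs from these deeper cells (median 4939 UMIs), so 14.6% may understate the background. Unthinned, their share was higher, but still below the 63.3% to 74.4% of the 4 groups in replicate 1. Cd69 ranged widely between cells, with up to 21 UMIs in 1 cell. Its gene lies at chr6:129267325-129275436 on the minus strand.

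Cd160 was highest in the Ncr1 group, at 158 and 96.5 CPM. The rest had 109 and 62.6, the T group 89.2 and 44.9, and the Ccr6/Cd4 group 84.1 and 32.5. The order was the same in both replicates, but neighbouring groups overlapped because replicate 1 was higher throughout. The Ncr1 group was 2.22-fold above the Ccr6/Cd4 group (log2 ratio 1.15 ± 0.28, adjusted p = 0.014; 0.95 and 1.67), on 296 against 25 UMIs. That call ended when cells were thinned to 800 UMIs (1.08, adjusted p = 0.14). It also ended without cells holding 3 or more UMIs of other cell types, Fcer1g and Cst3 not counted (0.91, adjusted p = 0.070), a setting chosen after the data were seen. The T group was 1.86-fold below the Ncr1 group (-0.89 ± 0.15, adjusted p = 0.00017; -0.80 and -1.02). Against the Ccr6/Cd4 group it did not differ beyond its spread (0.26, 95% interval -0.32 to 0.84).

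In the T group, Cd160 was not evenly spread. Cells with Cd8a held 37.6% of its UMIs in replicate 1 (268 CPM) but 3.16% in replicate 2 (33.4 CPM, 3 UMIs). Cells with Trac and with Ccl5 or Gzma had 153 and 117 CPM, against 53.2 and 23.4 in cells with Trac and neither of these. Cells with Trdc and no Trac had 108 and 72.3 CPM, against 80.8 and 33.8 in cells with Trac and no Trdc. Cd160 lies at chr3:96798763-96829351 on the minus strand, and Pdzk1 overlaps it on the opposite strand (29 UMIs). The first of its 2 RefSeq windows, at chr3:96829352-96829601 on the minus strand (GRCm38.p6), is shown because Cd160 had its highest level in the Ncr1 group.
Cd160: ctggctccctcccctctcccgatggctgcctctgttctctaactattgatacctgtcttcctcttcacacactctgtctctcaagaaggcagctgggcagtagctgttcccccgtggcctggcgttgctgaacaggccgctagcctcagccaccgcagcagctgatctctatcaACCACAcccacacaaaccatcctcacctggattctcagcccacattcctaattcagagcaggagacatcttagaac
It held 1 RUNX match, read on the opposite strand, and no ETS or GC box match. The second window of Cd160, at chr3:96814522-96814771 on the minus strand and not shown, held 1 RUNX match and 1 GC box.

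The other integrin chains were tested as a list. Of 16 chains outside the 8 genes, 12 were tested. Between the Ncr1 and Ccr6/Cd4 groups 1 was called, Itgb2, higher in the Ncr1 group (median over the list 0.29). Between the T and Ncr1 groups 4 of the 12 were lower and 0 higher in the T group (median 0.02), where 11.6% of all genes were called. Itgav, the alpha chain that binds and activates latent TGF-beta with beta partners, had 68.2 and 114 CPM in the T group against 142 and 168 in the Ncr1 group (log2 ratio -0.77 ± 0.14, adjusted p = 0.00056). Its partners Itgb3 (-0.48 ± 0.14, adjusted p = 0.022) and Itgb5 (-1.19 ± 0.36, adjusted p = 0.030) and the fibronectin receptor chain Itga5 (-0.86 ± 0.19, adjusted p = 0.0033) were the others. Itga1, which binds collagen, was 2.67-fold higher in the T than in the Ccr6/Cd4 group (1.42 ± 0.35, adjusted p = 0.0093), where 2 chains were higher and 2 lower (median -0.16). The alternative partner of Itga4, Itgb1, stood at 108 to 168 CPM in all groups and samples.

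Genes that switch integrins on from inside the cell were tested as a list of 18. Between the Ncr1 and Ccr6/Cd4 groups 2 were higher and 1 lower, between the T and Ncr1 groups 5 and 2, and between the T and Ccr6/Cd4 groups 4 and 1, with medians of 0.18, -0.05 and 0.09. Skap1, an adaptor that brings the GTPase Rap1 and its effectors to integrins after receptor signals, had 71.5 and 123 CPM in the Ccr6/Cd4 group. It had 249 and 211 in the Ncr1 and 368 and 360 in the T group (log2 ratios against the Ccr6/Cd4 group 1.41 ± 0.24, adjusted p = 0.00042, and 2.10 ± 0.22, adjusted p = 3.3e-07). Rasgrp2, an activator of Rap1, had 0 and 6.50 CPM in the Ccr6/Cd4 group against 28.4 and 28.7 in the Ncr1 and 48.8 and 46.8 in the T group. Fyb, the partner of Skap1, went the other way between these 2 groups without CD3. It had 252 and 416 CPM in the Ccr6/Cd4 against 176 and 164 in the Ncr1 group (-0.83 ± 0.18, adjusted p = 0.0063). Fyb was highest in the T group at 526 and 491, and the part of T cells without a CD3 UMI in its values was not tested. Rassf5, a Rap1 effector that binds Itgal, was 2.28-fold higher in the T than in the Ccr6/Cd4 group (1.19 ± 0.29, adjusted p = 0.0086). Zyx, a focal adhesion protein, was lower in the T group there (-1.03 ± 0.21, adjusted p = 0.0012).

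Genes of egress and recirculation formed a list of 9, of which 8 were in the tables and 7 were tested. In the 3 comparisons 1, 2 and 3 of the 7 were called, beside 4.62%, 11.6% and 10.0% of all genes. Ccr7, which leads lymphocytes into lymphatics, was the 1 call between the Ncr1 and Ccr6/Cd4 groups. Its log2 ratio was -4.09 ± 0.90 (adjusted p = 0.0058), with -2.05 in replicate 1 and -5.78 in replicate 2, from 29.4 and 136 CPM in the Ccr6/Cd4 group. Cxcr4 was lowest in the T group, at 16.0 and 7.09 CPM, against 28.4 and 20.7 in the Ncr1 and 71.5 and 45.5 in the Ccr6/Cd4 group (T against Ncr1 -1.03 ± 0.30, adjusted p = 0.026; T against Ccr6/Cd4 -2.22 ± 0.41, adjusted p = 0.00053). Foxo1, a transcription factor of T cell recirculation genes, was 1.93-fold higher in the T than in the Ncr1 group (0.95 ± 0.13, adjusted p = 9.9e-06). Medians were -0.04, 0.14 and 0.19 in the 3 comparisons.

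Selectin binding by PSGL-1 depends on sugar chains added by glycosyltransferases. Of 13 such genes, 12 were in the tables and 11 were tested, and 2, 2 and 3 were called in the 3 comparisons (medians 0.45, -0.24 and 0.29). St3gal6, a sialyltransferase of selectin ligands, was high where Selplg was high, at 186 and 140 CPM in the Ncr1 group and 130 and 100 in the T group against 54.7 and 65.0 in the Ccr6/Cd4 group (Ncr1 against Ccr6/Cd4 1.58 ± 0.27, adjusted p = 0.00047). St3gal1, which caps core 1 glycans, was the reverse, with 147 and 90.9 CPM in the Ccr6/Cd4 group against 57.5 and 54.0 in the Ncr1 group (-1.06 ± 0.29, adjusted p = 0.034) and 45.4 and 22.7 in the T group. B4galt1, a galactosyltransferase, was 2.14-fold higher in the T than in the Ncr1 group (1.10 ± 0.13, adjusted p = 1.6e-06).

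TGF-beta signals induce Itgae in gut T cells, and Runx3 is a regulator of tissue residency. Of 17 genes of this pathway and of residency, 16 were tested, with 2, 5 and 5 called (medians 0.13, -0.003 and -0.13). Tgfbr2, the ligand-binding receptor, was higher in the T group, at 234 and 144 CPM against 149 and 119 in the Ncr1 group (0.53 ± 0.14, adjusted p = 0.0092) and 135 and 71.5 in the Ccr6/Cd4 group (0.96 ± 0.22, adjusted p = 0.0053). Smad2, a signal transducer of the pathway, was lower in the T group, at 16.4 and 25.5 CPM against 33.6 and 48.2 in the Ncr1 group (-0.93 ± 0.24, adjusted p = 0.0092). Skil, which encodes the SMAD inhibitor SnoN, was highest in the Ccr6/Cd4 group, at 736 and 526 CPM against 412 and 324 in the Ncr1 group (-0.71 ± 0.13, adjusted p = 0.0015). Runx3 was 1.39-fold higher in the Ncr1 than in the Ccr6/Cd4 group (0.48 ± 0.13, adjusted p = 0.027). Bhlhe40, a residency factor, was lower in the T than in the Ncr1 group (-0.39 ± 0.09, adjusted p = 0.0025).

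Chemoattractant receptors act with the integrins in gut homing. Of 11, 9 were tested, with 5, 3 and 6 called (medians 0.28, 0.27 and 1.01), beside 4.62%, 11.6% and 10.0% of all genes. Ccr1 and Cxcr5 are among those called. They passed the filter on low counts only with the Ccr6/Cd4 group, where they were high, so their calls are counted but support nothing. Ccr9, which guides cells toward CCL25 from the small-intestinal epithelium, was highest in the Ncr1 group at 572 and 358 CPM, against 63.1 and 156 in the Ccr6/Cd4 group, where Itga4 was highest, and 215 and 152 in the T group. Its log2 ratio was 2.31 ± 0.26 between the Ncr1 and Ccr6/Cd4 groups (adjusted p = 2.1e-06; 3.20 and 1.33). Cxcr5, the receptor for the follicle chemokine CXCL13, had 114 and 84.4 CPM in the Ccr6/Cd4 group and under 3 CPM in every Ncr1 and T sample. Ccr2 was 14.2-fold higher in the T than in the Ncr1 group (3.83 ± 0.23, adjusted p = 1.7e-11). Cxcr6, the receptor for CXCL16, was 1.69-fold higher in the Ncr1 than in the Ccr6/Cd4 group (0.75 ± 0.12, adjusted p = 0.00033).

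Ligands and counter-receptors formed the last list, with 7 of 13 genes tested and 2, 1 and 2 called (medians 0.65, 0.13 and 0.31). Ezr and Msn, which link CD44 and PSGL-1 to the actin skeleton, were both higher in the Ncr1 than in the Ccr6/Cd4 group (0.65 ± 0.15, adjusted p = 0.0091, and 0.63 ± 0.17, adjusted p = 0.032). Cd244a, a receptor of NK cells and other lymphocytes, was 8.86-fold lower in the T than in the Ncr1 group (-3.15 ± 0.27, adjusted p = 6.0e-09).

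Likeness between genes was measured as Pearson's r of log2 CPM over the 8 group sums, among 5516 genes with a mean of at least 20 CPM. The sums of 1 replicate share a library, so r also follows differences between the replicates and is given as a description. Among the 8 genes themselves, Itgb7 and Cd69 had an r of 0.90 and Cd44 and Selplg 0.89, while Itga4 and Itgal had -0.86. The genes most like Itga4 were Tspan32 (0.991), Stom (0.991) and Pde6d (0.983), and those most like Itgae were Herpud2 (0.952), Ccl5 (0.948) and Dtx1 (0.933). Outside the T group no Itgae sum held more than 20 UMIs, so its r rests largely on the T group sums. For Itgb7 they were S100a10 (0.982), Ptprcap (0.981) and Atp2a3 (0.978), and for Itgal they included Mmp25 (0.984) and Ly6g5b (0.983). Cd69 was followed by Ten1 (0.992), Egln2 (0.977) and Sntb2 (0.973), and Cd44 by Dcaf7 (0.985), AU020206 (0.984) and Il27ra (0.983). Selplg stood nearest to Slc16a6 (0.989), Ifngr1 (0.987) and Mrpl32 (0.987), and Cd160 to Spint2 (0.965), AW112010 (0.963) and Ptk2b (0.962), a kinase of integrin signals.

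Between the replicates, 7 of the 8 genes were higher in replicate 1 over all kept cells, with no test possible for 1 sample each. The ratios of replicate 1 to replicate 2 were 5.69 for Itgae, 1.82 for Cd160, 1.60 for Itga4, 1.34 for Itgb7, 1.29 for Itgal, 1.28 for Cd69 and 1.13 for Cd44. Over 5488 genes with at least 20 CPM the median ratio was 1.04 and the quartiles were 0.869 and 1.26, so 6 of the 8 genes lay above the upper quartile. Itgae is 1 of these 6, but with a mean of 16.7 CPM it is not in the compared set. In the Ccr6/Cd4 group Cd44 and Itgal went against this and were lower in replicate 1 (ratios 0.60 and 0.797). That group had the fewest UMIs, and only 38 to 48 UMIs per replicate stood behind these genes.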

How the data were processed

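The deposited values are whole-number UMI counts per cell and gene, which per the file headers came from version 1.8 of BD's WTA Multiplex Rhapsody pipeline run by the authors on GRCm38 with GENCODE M19. HISAT2 2.0.5, Bowtie2, GRCm38.p6 and mm10 stand in the submitters' processing notes. Both libraries were separate runs and shared tags with other samples, whose cells were not used. The own tag marked 3427 and 3954 cells with 7011649 and 6845914 UMIs. Multiplets (572 and 987) were left out by tag call, and no other doublet caller was used. Between the own-tag sets, 10 cell indices were shared. Cells needed 300 genes or more and a mitochondrial share of at most 25%, which kept 3337 and 3840 and left out 90 and 114. A gene missing from 1 table was read as 0 there.

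The 8 genes and all lists were chosen with earlier results of these data known, and the cell groups do not use any of the 8. Counts were summed per sample and cell group (8 sums) and put through edgeR's quasi-likelihood test (edgeR 4.0.16 in R 4.3.3) after TMM and filterByExpr, with the sample as a block, since the groups of 1 sample come from 1 library. That left 3 residual degrees of freedom and a common dispersion of 0.00657. P-values were adjusted by Benjamini-Hochberg at 0.05 over 9637 genes, without the 6 genes that define the groups. The script was tested on simulated data. Fold changes are edgeR's estimates. Ratios of single replicates use TMM and a prior count of 2. CPM are UMIs per group sum without TMM. The 95% intervals of CPM (exact Poisson) and of shares (exact Clopper-Pearson) cover counting error only, and the limit for a count of 0 is 3 counts. Intervals of log2 ratios are normal and may be too narrow at so few degrees of freedom. Named genes are the 8, up to 4 called genes per list and comparison with the largest ratio of the same sign in both samples, and the 3 most alike per gene, of which 1 is not reported here. Itgb1 levels were added after the data were seen, as the other partner of Itga4. Promoters came from RefSeq. Alternatives were DESeq2 1.42.0, no TMM, no filter on low counts, no replicate block, other cell filters, thinning to 800 UMIs, other group rules and leaving out a replicate.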

Additional observations from a re-analysis of the deposited data

How the results depend on the processing

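Called genes numbered 445 between the Ncr1 and Ccr6/Cd4 groups, 1119 between the T and Ncr1 groups and 967 between the T and Ccr6/Cd4 groups. Without the replicate block they numbered 10, 83 and 109. The pairing of groups comes from the shared library. With cells holding any T cell receptor constant UMI left out of the groups without CD3, they numbered 148, 197 and 571. With cells holding 3 or more UMIs of other cell types left out, they numbered 129, 664 and 415. Both settings remove most cells without CD3 and test fewer genes. The second counts Fcer1g, which had a UMI in 95.2% and 86.5% of Ncr1 cells, so it does not remove only cells of other types. DESeq2 gave 687 between the T and Ncr1 groups. Without TMM the split was 194 higher and 257 lower between the Ncr1 and Ccr6/Cd4 groups (226 and 219 with it), and 423 and 552 between the T and Ccr6/Cd4 groups (526 and 441 with it), where the all-gene median moved by -0.12. DESeq2 gave splits of 137 and 216 and of 338 and 456. Gentler forms of those cell settings, by Trac only and without Fcer1g and Cst3, were chosen after seeing the data and kept every count within 1.5 times.

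Of the 8 genes' called ratios, 134 of 162 values under the alternatives stayed past the threshold in the same direction, and 28 did not. Of these 28, 13 came without the block. With the T cell receptor setting the calls of Itga4 (-0.86), Itgal (0.90) and Cd160 (-0.75) between the T and Ncr1 groups ended, as did those of Cd44 (0.83) and Cd160 (1.34) between the Ncr1 and Ccr6/Cd4 groups. With cells of other types left out, those of Itga4 (-0.90), Cd44 (0.80) and Cd160 (1.64) between the Ncr1 and Ccr6/Cd4 groups ended, as did Cd160 (-0.74) between the T and Ncr1 groups and Cd44 (0.86) between the T and Ccr6/Cd4 groups. The same setting brought Itgb7 between the T and Ncr1 groups (0.46) and Cd69 between the T and Ccr6/Cd4 groups (0.71) past the threshold. With Fcer1g and Cst3 not counted, only the Cd160 call between the Ncr1 and Ccr6/Cd4 groups ended, and no further ratio passed. Itgal between the Ncr1 and Ccr6/Cd4 groups passed with Trac cells left out (0.67). Uncalled ratios changed sign between the T and Ncr1 groups for Cd69, from 0.05 to -0.016 when thinned and -0.057 with the T cell receptor setting, and for Selplg, from -0.07 to 0.13 with that setting and 0.17 with cells of other types left out. The cause was not tested. Itgae fell under the filter on low counts in the thinned setting and in both settings that remove most cells, so it has no value there. Leaving out a replicate leaves ratios with no test, and no called ratio turned. The depth limits Itgae outside the T group and everything that rests on the 207 Ccr6/Cd4 cells.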
